A study of Mus musculus with 12 samples.

Results

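Bidirectional promoter lncRNAs are long non-coding RNAs whose transcription starts head to head with that of a protein-coding gene, on the other strand and a short distance away. They were chosen here by their deposited gene type, bidirectional_promoter_lncRNA, which 60 of the 2789 annotated lncRNA transcripts carried. These 60 transcripts belong to 48 of the 2315 annotated lncRNA genes in the table, 38 of them with 1 transcript, 8 with 2 and 2 with 3. RNA had been sequenced from C57BL/6 mice, a common inbred strain, described as wild type and given as 8 weeks old in the labels and as 56 days in the design text. The 12 libraries form 4 groups of 3: STG and CTG from the trigeminal ganglia (TG), where the sensory neurons of face and jaw have their cell bodies, and SSp5C and CSp5C from the spinal trigeminal nucleus caudalis (Sp5C), the part of the brainstem to which pain fibres of those neurons project. The series concerns chronic inflammatory pain of the jaw joint, but no label says what the letters S and C mean, so they stand as given and each contrast between them is C minus S. Whether libraries of the same group are from different animals is not stated in the labels, so the p-values speak of the spread among these libraries, which could be technical.

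When a promoter fires in both directions, the RNA made on the side away from the coding gene is in most cases unstable and short. Where a longer, more stable RNA is made, annotation lists it as a bidirectional promoter lncRNA. Such promoters are typically rich in CpG and lack a TATA box, and the RNAs on either side often share their tissue pattern. For most of the 48 genes no function is known, so each is described beside the coding gene across its promoter, called its partner below. Symbols, positions and partners come from GENCODE M21 (GRCm38), matched by gene ID, since the deposited table gives clone names for most members (RP23-277H6.1 for 2310014F06Rik).

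All 60 transcripts were found in GENCODE M21, which lists 190 genes of the type. The 48 genes lie on 12 chromosomes, with 10 on chromosome 10 and 9 each on chromosomes 7 and 12. A head-to-head partner within 2000 bases was found for every member, which the type itself requires. The start of the lncRNA lay 5 to 849 bases from that of the partner (median 124.5 bases), and in 44 pairs within 300 bases. In 36 pairs the transcripts start apart from each other, and in 12 they overlap at their 5′ ends. The transcripts have 1 to 9 exons, and the longest transcript of each gene measures 249 to 6566 bases (median 1672.5). In 19 members an exon overlaps an exon of a gene on the other strand, which is the partner in 15. The library kit marks strand, but whether the counting used it is not given in the sources used here. Reads of the 2 strands may therefore not have been told apart in those 19, and their values are uncertain.

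RefSeq promoter windows of 300 bases (GRCm38.p6, from 250 bases before to 50 bases after a start) were held for 33 of the 48 lncRNA genes and 39 of the partners. The 39 lncRNA windows had a median GC content of 68%, and the 50 partner windows 65.7%, beside 52.7% over 32851 windows of all genes. The CpG dinucleotide, which methylation depletes from most of the genome, stood at a median of 0.837 of its expected frequency in the lncRNA windows, at 0.759 in the partner windows and at 0.384 in all windows. Both strands were searched for 6 short motifs. These were the GC box, spelled GGGCGG, the CCAAT box, the TATA box in the form TATAAA, an ETS factor motif spelled CCGGAAG, the E-box in the form CACGTG, and the palindromic core motif of NRF1. The E-box and the NRF1 motif read the same on either strand. The GC box was found in 61.5% of lncRNA windows, 60% of partner windows and 35.7% of all windows. The TATA box was in none of the lncRNA windows, in 6% of the partner windows and in 13.6% of all windows. The ETS motif was in 17.9%, 20% and 8.86% of these sets, the E-box in 12.8%, 14% and 7.15%, and the NRF1 motif in 2.56%, 6% and 0.971%. These shares rest on few windows: the NRF1 motif on 1 lncRNA and 3 partner windows, and the E-box on 5 and 7. The CCAAT box was the other motif less frequent here, in 23.1%, 30% and 37.4%. Windows of a pair overlap, so the lncRNA and partner sets share much of their sequence, and a match is no evidence of binding.

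The windows of 5 pairs are shown because both their genes differed between the tissues, in the same direction or in opposite directions, by the most among pairs whose RefSeq window holds a start; each of these holds both starts. Each is written 5′ to 3′ on the strand of the gene whose window it is, with matches to the 6 motifs in capitals, and positions count from 1 at its first base. The pair highest in TG for which RefSeq held a window is Haglr and Hoxd1 (chr2:74762730-74763029, plus strand, window of Hoxd1), where Haglr starts at position 167 and runs leftwards and Hoxd1 starts at position 251. The capitals there are 2 GC boxes, a CCAAT on the minus strand and an E-box. In the window of Rab3ip (chr10:116950404-116950703, minus strand), 4933412E12Rik starts at position 116 and Rab3ip at position 251, with 5 GC boxes around the latter.
Haglr and Hoxd1: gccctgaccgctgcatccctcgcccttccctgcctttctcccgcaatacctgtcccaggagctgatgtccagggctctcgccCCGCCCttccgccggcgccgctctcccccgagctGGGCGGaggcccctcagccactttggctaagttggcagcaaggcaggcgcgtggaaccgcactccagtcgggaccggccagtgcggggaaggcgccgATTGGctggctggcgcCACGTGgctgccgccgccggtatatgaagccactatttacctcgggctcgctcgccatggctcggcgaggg
4933412E12Rik and Rab3ip: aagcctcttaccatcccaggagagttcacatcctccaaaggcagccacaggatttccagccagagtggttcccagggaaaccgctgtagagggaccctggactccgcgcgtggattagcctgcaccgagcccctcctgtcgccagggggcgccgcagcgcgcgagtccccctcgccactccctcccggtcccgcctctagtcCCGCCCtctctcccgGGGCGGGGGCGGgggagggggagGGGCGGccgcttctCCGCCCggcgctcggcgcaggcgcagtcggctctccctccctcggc
Among the pairs lower in TG, Gm26777 and Galnt16 (chr12:80518740-80519039, plus strand, window of Galnt16) start at positions 177 and 251, in a window with 31 CpG and none of the 6 motifs. F730043M19Rik and Atxn7l1 (chr12:33147537-33147836, minus strand, window of F730043M19Rik) start at positions 240 and 144, in a window with 33 CpG and 1 GC box.
Gm26777 and Galnt16: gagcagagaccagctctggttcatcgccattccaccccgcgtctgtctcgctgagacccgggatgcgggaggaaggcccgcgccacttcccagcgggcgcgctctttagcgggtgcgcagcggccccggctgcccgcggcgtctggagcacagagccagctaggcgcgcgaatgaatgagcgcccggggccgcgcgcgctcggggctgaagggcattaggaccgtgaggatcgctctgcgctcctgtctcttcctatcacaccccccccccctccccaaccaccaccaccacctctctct
F730043M19Rik and Atxn7l1: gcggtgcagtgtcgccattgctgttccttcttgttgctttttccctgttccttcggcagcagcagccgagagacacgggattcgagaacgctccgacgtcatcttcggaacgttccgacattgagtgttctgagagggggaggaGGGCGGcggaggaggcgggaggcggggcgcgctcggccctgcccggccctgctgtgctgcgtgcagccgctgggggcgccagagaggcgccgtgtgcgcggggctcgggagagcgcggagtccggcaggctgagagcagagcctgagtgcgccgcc
The pair of opposite direction, with the largest difference among those whose window holds a start, is 1500026H17Rik and Scyl2 (chr10:89686113-89686412, plus strand, window of 1500026H17Rik), with starts at positions 259 and 173. It holds 3 GC boxes and 1 ETS match on the minus strand, which overlaps the first GC box.
1500026H17Rik and Scyl2: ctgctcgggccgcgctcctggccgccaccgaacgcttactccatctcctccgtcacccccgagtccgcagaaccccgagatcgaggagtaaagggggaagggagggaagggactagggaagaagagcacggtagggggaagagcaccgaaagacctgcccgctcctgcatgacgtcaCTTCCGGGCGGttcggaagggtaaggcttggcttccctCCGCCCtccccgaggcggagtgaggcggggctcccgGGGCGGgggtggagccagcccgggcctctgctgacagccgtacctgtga

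The tissues of the libraries were as labelled. The summed level of 8 sensory neuron markers was 1080 to 1230 FPKM in TG and 150 to 209 FPKM in Sp5C, and that of 5 myelinating Schwann cell markers 4330 to 5630 FPKM against 41.5 to 66.3 FPKM. The 4 markers of central inhibitory neurons summed to 0.334 to 0.677 FPKM in TG and 213 to 240 FPKM in Sp5C, those of astrocytes to 65.7 to 83 FPKM and 772 to 946 FPKM, and those of oligodendrocytes to 307 to 541 FPKM in TG, 2600 to 2760 FPKM in SSp5C and 1750 to 2390 FPKM in CSp5C, without overlap between the last 2. None of these defining markers was at 0 in a whole tissue. Some libraries also carried markers of other tissue or cells: the 8 pituitary markers reached 2870 FPKM in STG replicate 1 against 2.57 to 51.7 FPKM in the other TG libraries, and the 9 neutrophil and bone marrow markers reached 871 FPKM in CTG replicate 1 and 292 FPKM in CTG replicate 3 against 3.97 to 33.5 FPKM in the other TG libraries. The 5 red blood cell markers ran from 105 to 1260 FPKM in TG, highest in STG replicate 3, and from 184 to 621 FPKM in Sp5C. The 4 microglia markers summed to 13.3 to 22 FPKM in TG and 21.8 to 47.1 FPKM in Sp5C, so their ranges meet. In Sp5C, CSp5C replicate 3 was highest in the 4 choroid plexus markers, at 56.1 FPKM against 3.13 to 21.6 FPKM in the others, and in the 3 markers of cerebellar granule cells, at 15.3 FPKM against 2.8 to 7.21 FPKM. The part of these in the results was not tested; values without each library are given where they change a call. FPKM holds no counts. Regular steps among the lowest values placed the depth at about 22700000 (CSp5C replicate 3) to 31800000 fragments (CTG replicate 3) per library, but only 15% to 19.7% of low values lay on the steps, so whole reads were not recovered and no counting interval is given. On that scale the median member stood at 30.3 fragments in a typical library, and single members at 0.914 to 837.

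Most members were low. The mean level over the 12 libraries ran from 0.105 to 35.5 FPKM with a median of 0.812 FPKM, beside 0.675 FPKM over all annotated lncRNA genes. It was 0.847 FPKM for processed_transcript, 0.736 for TEC (unspliced loci awaiting experimental checks), 0.619 for lincRNA and 0.492 for antisense genes. Of the 48 members, 2 had a mean of at least 5 FPKM, 19 lay between 1 and 5, 10 between 0.5 and 1, and 17 lower. RNA of 43 members was above 0 in all 12 libraries. A mean of 0.5 FPKM was required to enter a comparison, which 31 members passed over all 12 libraries (64.6%, beside 61.8% of all annotated lncRNA genes). The nearest to that limit were Gm16576 at 0.605 FPKM and Lrp8os3 at 0.462 FPKM. Of the 31, 3 had a TG mean under the limit and 1 a Sp5C mean under it, so they passed through the tissue in which they were high.

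The highest member was Ndufb1-ps, named as a pseudogene of a subunit of mitochondrial complex I. It read 33.9, 28.2 and 30.6 FPKM in STG, 30, 30.9 and 38.1 in CTG, 30.4, 42 and 38.3 in SSp5C, and 40.9, 41.6 and 41.4 in CSp5C. It overlaps an exon of its partner Cpsf2, a subunit of the machinery that cleaves and polyadenylates mRNA, and reads shared with related copies may be split, so its level is uncertain. Gm47163, a single-exon gene that overlaps Shc2, was second at 9.26 ± 0.941 FPKM in TG and 9.04 ± 1.04 FPKM in Sp5C (SD, n = 6 each). Next came 4632427E13Rik, beside the Golgi GTPase gene Rab30, at a mean of 4.97 FPKM, and F730043M19Rik, beside Atxn7l1, at 4.54 FPKM. 9330151L19Rik followed at 3.75 FPKM and Cep83os at 3.49 FPKM, the latter beside Cep83, a component of the centriole's distal appendages. At the low end, 1700016J18Rik had a mean of 0.105 FPKM and was listed at 0 in 5 of the 12 libraries.

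The partner was the higher RNA of the pair in 45 of 48 cases. The median partner level was 10.7 FPKM and the median ratio of partner to lncRNA was 14.5, from 0.00328 to 1850. The widest gap was that of Gm26559, at 0.339 ± 0.185 FPKM in TG and 0.357 ± 0.0758 FPKM in Sp5C, beside Map1b, a microtubule-associated protein of neurons, at 947 ± 87.4 and 341 ± 32.1 FPKM (SD, n = 6). The 3 exceptions were Ndufb1-ps, which was above Cpsf2, Gm40383, which was above Ferd3l with both under 0.4 FPKM, and 9330151L19Rik. The coding gene with the nearest start to 9330151L19Rik, AC099934.1, did not exceed 0.0391 FPKM in any library, and 9330151L19Rik overlaps an exon of Dnaaf2 on the other strand. FPKM is per length of transcript, so in that respect these levels can be set side by side. In the 15 members that overlap an exon of their partner, reads of the pair may not have been told apart, and those ratios are uncertain.

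**Figure D1:**
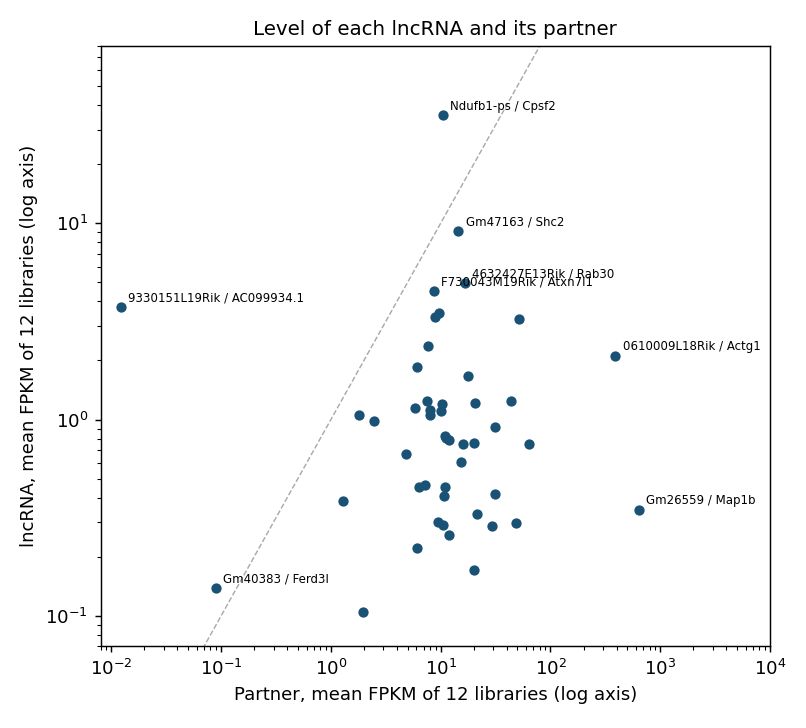
Mean FPKM of each of the 48 lncRNA genes (vertical, log axis) against that of its head-to-head partner (horizontal, log axis); each point is 1 pair and the dashed line marks equal levels. Of the points, 45 lie right of the line, with Ndufb1-ps, Gm40383 and 9330151L19Rik left of it.

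The tissues differed in 15 of the 31 members tested, with 3 higher and 12 lower in TG than in Sp5C (limma on log2(FPKM + 0.5), Benjamini-Hochberg adjusted p under 0.05). That is 48.4% of members tested, beside 56.4% of the 1431 annotated lncRNA genes tested, of which 30.3% were higher and 26.1% lower. With the replicate number as a block, 3 members were higher and 13 lower, beside 29.4% and 25.9% of all genes; 2310010J17Rik and Gm48295 were gained and Gm9776 (adjusted p = 0.0612) was lost. The median difference of members was -0.27 on the log2 scale, and that of all annotated lncRNA genes 0.06. No overlap between the 6 TG and the 6 Sp5C libraries was seen for 3 members higher and 10 lower, beside 16.8% and 16% of all genes tested. In bulk tissue, fewer cells of a type and less RNA per cell cannot be told apart. Of the 15, 8 overlap an exon on the other strand, beside 13 of the 31 tested.

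**Figure D2:**
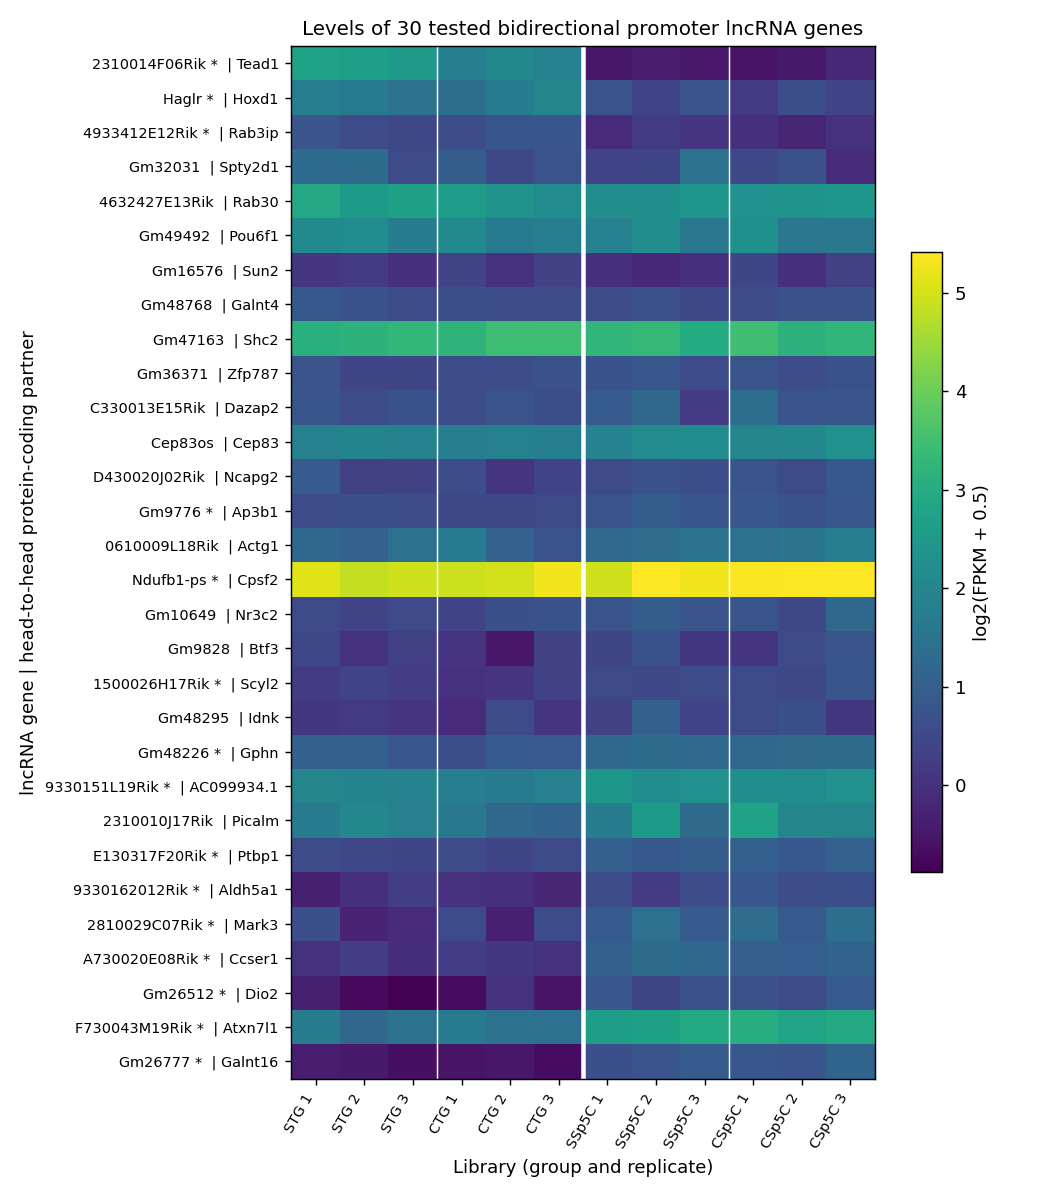
Level of 30 of the 31 tested members in each library as log2(FPKM + 0.5) (colour), ordered from the highest to the lowest difference between TG and Sp5C; an asterisk marks an adjusted p under 0.05 and the name after the bar is the partner. 2310014F06Rik at the top is bright in the 6 TG libraries and dark in Sp5C, and Gm26777 and Gm26512 at the bottom are the reverse.

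2310014F06Rik had the largest difference of the members. It read 6.15, 5.83 and 5.15 FPKM in STG, 3.04, 3.59 and 3.22 in CTG, 0.216, 0.262 and 0.226 in SSp5C, and 0.187, 0.247 and 0.376 in CSp5C. Every TG library was above every Sp5C library, and every STG library above every CTG library. The difference between tissues was 2.69 ± 0.10 (log2, SE, adjusted p = 3.79e-12). The gene lies on chromosome 7 (112612560 to 112680081, minus strand), and the start of Tead1, a DNA-binding factor at the end of the Hippo pathway, lies 701 bases inside it. Tead1 was at 12.3 ± 1.3 FPKM in TG and 3.07 ± 0.703 FPKM in Sp5C, a difference of 1.72 ± 0.10 (adjusted p = 1.7e-08). The lncRNA rose more than Tead1: the lncRNA relative to its partner differed by 0.83 ± 0.14 (adjusted p = 0.000238). The size of this value depends on the pseudocount. It was 1.67 (adjusted p = 1.32e-05) with 0.1 and 0.37 (adjusted p = 0.0156) with 1.

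Haglr, an antisense RNA of the HoxD cluster, was also higher in TG. It read 3.01, 2.83 and 2.29 FPKM in STG and 2.13, 2.79 and 3.44 in CTG, and 1.19, 0.807 and 1.16 in SSp5C and 0.637, 1.05 and 0.812 in CSp5C. The tissues did not overlap, the S and C groups did. The difference was 1.17 ± 0.13 (adjusted p = 9.06e-07). Hoxd1, a homeobox factor that in mice takes part in the wiring of pain-sensing neurons, read 8.71 to 16.5 FPKM in TG and 0.287 to 0.722 FPKM in Sp5C, a difference of 3.08 ± 0.14 (adjusted p = 2.32e-09). Relative to Hoxd1, whose start is 84 bases away, Haglr was lower in TG by the largest amount of the 30 pairs tested, at -2.45 ± 0.13 (adjusted p = 6.45e-09). In Sp5C the lncRNA, at 0.943 ± 0.223 FPKM, stood above its partner at 0.493 ± 0.175 FPKM, and in TG, at 2.75 ± 0.480 FPKM, below it at 11.8 ± 2.70 FPKM (SD, n = 6).

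The third member higher in TG was 4933412E12Rik, at 1.22, 0.962 and 0.910 FPKM in STG, 1.03, 1.24 and 1.25 in CTG, 0.412, 0.670 and 0.564 in SSp5C and 0.503, 0.352 and 0.513 in CSp5C. TG and Sp5C did not overlap, and the difference was 0.68 ± 0.10 (adjusted p = 4.28e-05). Its partner Rab3ip, which activates a small GTPase of vesicle transport to the cilium, was also higher in TG, by 0.57 ± 0.08 (adjusted p = 6.52e-05). The lncRNA relative to its partner differed by 0.09 ± 0.13 (adjusted p = 0.62), a value that depends on the pseudocount because the lncRNA is low: it was 0.39 ± 0.18 (adjusted p = 0.0871) with 0.1 and -0.08 ± 0.11 (adjusted p = 0.546) with 1. In FPKM without a pseudocount, Rab3ip stood 12.4 times above the lncRNA in TG and 17.6 times in Sp5C.

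The 12 members lower in TG were led by Gm26777. This gene, Gm26512 and 9330162012Rik reached a mean of 0.5 FPKM in Sp5C but not in TG (0.199, 0.216 and 0.478 FPKM), as 2310014F06Rik did in TG alone, so these 4 were tested only through the tissue where they were high, and all 4 were called. Gm26777 read 0.258, 0.240 and 0.150 FPKM in STG and 0.186, 0.225 and 0.133 in CTG, against 1.08, 1.21 and 1.44 in SSp5C and 1.27, 1.22 and 1.70 in CSp5C. Each Sp5C library was above each TG library, with a difference of -1.38 ± 0.10 (adjusted p = 1.62e-08). Galnt16, an enzyme that starts O-linked glycan chains on proteins, was at 14.1 ± 1.93 FPKM in TG and 26.3 ± 5.56 FPKM in Sp5C, a difference of -0.83 ± 0.15 (adjusted p = 0.000355). In CSp5C replicate 2, however, Galnt16 read 15.1 FPKM, within the TG range, while Gm26777 read 1.22 FPKM there.

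F730043M19Rik, a spliced gene of up to 9 exons and 3 transcripts, read 2.92, 1.79 and 2.31 FPKM in STG, 2.73, 2.28 and 2.18 in CTG, 5.76, 5.97 and 7.29 in SSp5C, and 7.77, 6.45 and 7 in CSp5C. The tissues did not overlap, with a difference of -1.33 ± 0.11 (adjusted p = 4.95e-08). The gene across its promoter, Atxn7l1, differed by -0.39 ± 0.07 (adjusted p = 0.000325), and the lncRNA relative to it by -0.92 ± 0.11 (adjusted p = 6.26e-06). Its leading transcript took 67.4% to 81.3% of the gene in every library, in both tissues.

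Gm26512 starts 219 bases inside Dio2, the deiodinase that makes active thyroid hormone and that in brain is known mainly from astrocytes. It read 0.297, 0.111 and 0.0434 FPKM in STG, 0.127, 0.531 and 0.188 in CTG, 1.28, 0.844 and 1.11 in SSp5C, and 1.10, 0.981 and 1.36 in CSp5C. The tissues did not overlap, and the difference was -1.19 ± 0.14 (adjusted p = 2.97e-06). Dio2 itself was also lower in TG, at 1.10 ± 0.611 FPKM and 8.52 ± 1.22 FPKM in Sp5C (-2.22 ± 0.18, adjusted p = 4.95e-07). The sizes cannot be set side by side, since the pseudocount was 0.5 for the lncRNA and 1 for Dio2. In FPKM, Dio2 stood 5.07 times above Gm26512 in TG and 7.66 times in Sp5C. Tested as a ratio, the pair lost its call with a pseudocount of 0.1, as given below. Gm26512 and Dio2 share an exon overlap, and whether strand was used in counting is not known, so their levels are uncertain there. The astrocyte markers were lower in TG as well, as given above, and their part in this was not tested.

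A730020E08Rik was at 0.592 ± 0.0976 FPKM in TG and 1.70 ± 0.207 FPKM in Sp5C (SD, n = 6), with no overlap between tissues (-1.01 ± 0.10, adjusted p = 2.4e-07). Its partner Ccser1, 54 bases away, differed by -1.51 ± 0.09 (adjusted p = 3.52e-08). 2810029C07Rik was at 0.669 ± 0.352 FPKM in TG and 1.76 ± 0.412 FPKM in Sp5C (-0.98 ± 0.20, adjusted p = 0.000646). Across the 121 bases between the starts, Mark3, a kinase of microtubule-associated proteins, differed by -0.11 ± 0.05 with adjusted p = 0.0512, so this pair is the only 1 of the 30 in which the lncRNA passed and the partner did not. That rests on a margin, since Mark3 passed without SSp5C replicate 2 (adjusted p = 0.0311) or CSp5C replicate 1 (0.00824).

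9330162012Rik shares its promoter with Aldh5a1, the enzyme that clears the last product of GABA breakdown, and their exons overlap. The lncRNA read 0.292 to 0.714 FPKM in TG (median 0.487) and 0.679 to 1.26 FPKM in Sp5C (median 1.03). The ranges just overlap, with a difference of -0.63 ± 0.12 (adjusted p = 0.000337). Aldh5a1 differed far more, at 4.62 ± 0.147 FPKM in TG and 27.6 ± 1.92 FPKM in Sp5C (-2.35 ± 0.05, adjusted p = 4.82e-12). Relative to its partner the lncRNA was therefore higher in TG, by 1.82 ± 0.14 (adjusted p = 2.14e-07), the most of any member pair. The size of this value depends on the pseudocount, since the lncRNA mean in TG is under the 0.5 added. In FPKM, Aldh5a1 stood 9.66 times above the lncRNA in TG and 27.2 times in Sp5C. Gm48226, a single-exon gene overlapping Gphn, whose protein gephyrin anchors glycine and GABA receptors at synapses, differed by -0.39 ± 0.09 (adjusted p = 0.00196), and Gphn by -0.59 ± 0.04 (adjusted p = 8.27e-08). 9330151L19Rik was at 3.16 ± 0.271 FPKM in TG and 4.35 ± 0.330 FPKM in Sp5C (-0.41 ± 0.08, adjusted p = 0.000631), and Gm9776, beside the vesicle adaptor gene Ap3b1, was at 0.971 ± 0.0637 and 1.26 ± 0.118 FPKM (-0.25 ± 0.09, adjusted p = 0.0198).

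In 3 pairs the lncRNA was lower and the partner higher in TG. E130317F20Rik read 1, 0.904 and 0.844 FPKM in STG, 0.989, 0.857 and 0.942 in CTG, 1.57, 1.29 and 1.45 in SSp5C and 1.57, 1.31 and 1.63 in CSp5C. The tissues did not overlap (-0.47 ± 0.09, adjusted p = 0.000376). Its partner Ptbp1, a splicing repressor that is switched off as neurons mature, was at 12.5 ± 2.01 FPKM in TG and 7.95 ± 0.670 FPKM in Sp5C (0.59 ± 0.10, adjusted p = 0.000203), and the lncRNA relative to it differed by -1.08 ± 0.13 (adjusted p = 7.63e-06). 1500026H17Rik differed by -0.34 ± 0.10 (adjusted p = 0.00749) while Scyl2, which acts in clathrin-coated vesicles, differed by 0.23 ± 0.05 (adjusted p = 0.00159). Ndufb1-ps differed by -0.29 ± 0.09 (adjusted p = 0.0126) and Cpsf2 by 0.23 ± 0.04 (adjusted p = 0.000168), with Ndufb1-ps overlapping between the tissues. Of these 3 lncRNAs, all but 1500026H17Rik overlap an exon of the partner.

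**Figure D3:**
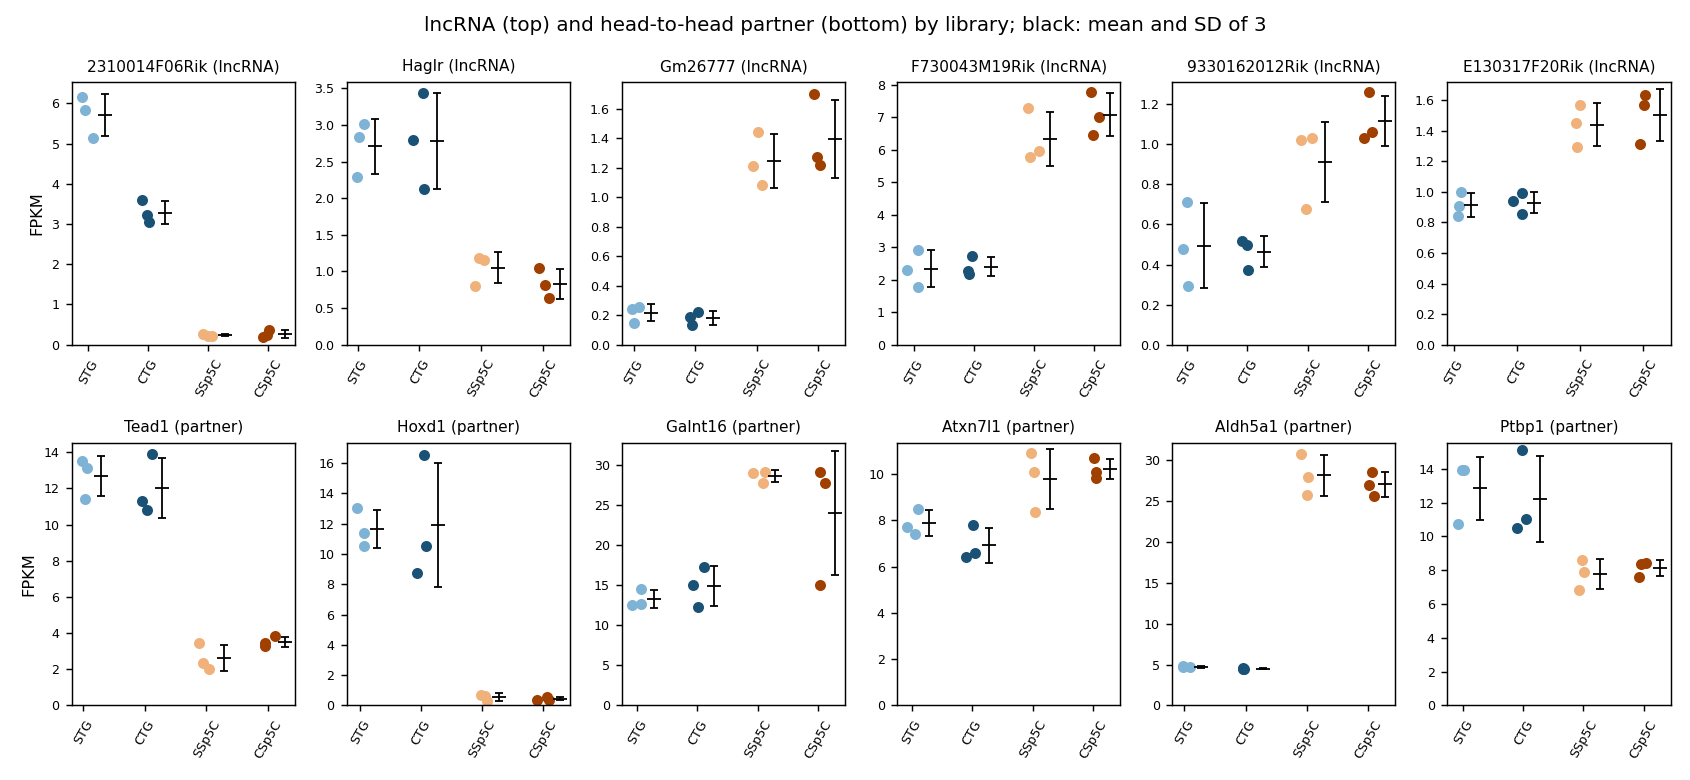
FPKM of 6 lncRNAs (top) and their partners (bottom) in each library by group, with the mean and SD of 3 libraries in black; axes start at 0. From 2310014F06Rik and Haglr, high in TG with their partners, the panels pass to pairs lower in TG and end with E130317F20Rik, which is lower in TG while Ptbp1 is higher.

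The other 16 members tested did not pass. Gm47163 is the clearest case of a pair that parts: it differed by 0.03 ± 0.09 (adjusted p = 0.767), with 7.5 to 10.6 FPKM in Sp5C against 8.16 to 10.4 FPKM in TG, while Shc2, an adaptor of receptor tyrosine kinases in neurons, was at 23.5 ± 1.31 FPKM in TG and 5.44 ± 0.629 FPKM in Sp5C (1.93 ± 0.07, adjusted p = 3.55e-10). Relative to Shc2 it differed by -1.98 ± 0.11 (adjusted p = 8.84e-09), although their exons overlap. 0610009L18Rik beside Actg1, a cytoplasmic actin, was the other large case: the lncRNA was at 1.88 ± 0.549 FPKM in TG and 2.34 ± 0.389 FPKM in Sp5C (adjusted p = 0.118), and Actg1 at 526 ± 22.6 and 257 ± 17.2 FPKM, so that the lncRNA relative to it differed by -1.31 ± 0.16 (adjusted p = 1.15e-05). Gm32031, 2310010J17Rik and Gm49492 varied more within tissues than between them, the last from 2.58 to 4.33 FPKM within Sp5C.

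Among the partners as a whole, 20 were higher and 17 lower in TG of 46 tested (80.4%), beside 36.2% higher and 35% lower of 13081 protein-coding genes (71.2% in all). In 30 pairs both genes could be tested. Both passed in 13 of them, 10 in the same direction and 3 in opposite directions. The lncRNA alone passed in 1, the partner alone in 10, and neither in 6. By sign alone, whether past the threshold or not, 18 of the 30 pairs went the same way. Across the 30 pairs the differences correlated with Pearson r = 0.67 and Spearman rho = 0.52, over genes measured in the same libraries. In the 308 head-to-head pairs of other lncRNA types both genes passed in 132, with the same direction in 100 and opposite in 32, and the correlations were 0.70 and 0.45. These are descriptions, without a test of a difference between the types. Tested as a ratio, the lncRNA relative to its partner was higher in TG in 7 of 30 pairs and lower in 12 (63.3%), beside 21.4% and 35.2% of all 341 pairs of any type (56.6%). Besides the pairs above, Gm26512 relative to Dio2 was higher by 1.38 ± 0.30 (adjusted p = 0.00195) and A730020E08Rik relative to Ccser1 by 0.64 ± 0.15 (adjusted p = 0.00236). With a pseudocount of 0.1 both lost the call, at 0.91 (adjusted p = 0.14) and 0.41 (0.0832). In that fit 4 pairs in place of 7 were higher, and its share over all pairs is not given.

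**Figure D4:**
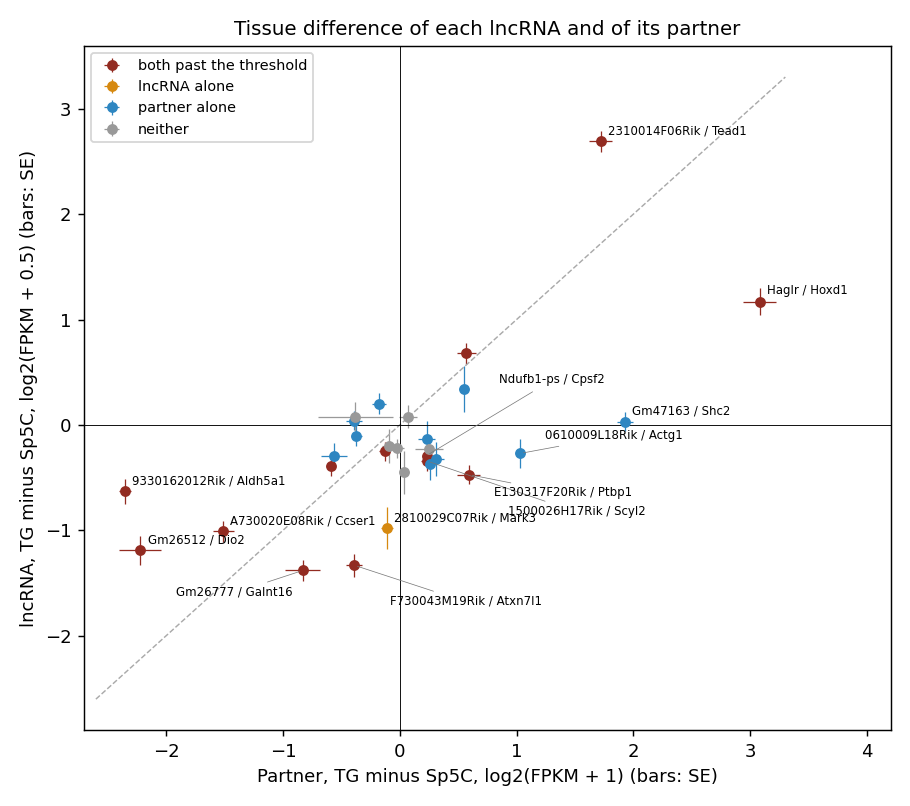
Difference between TG and Sp5C of each lncRNA (vertical) against that of its partner (horizontal), both on log2 scales with SE bars, for the 30 pairs in which both were tested; colour shows which of the 2 passed and the dashed line marks equal differences. 2310014F06Rik and Haglr lie at the upper right, 9330162012Rik and Gm26512 at the lower left, and Gm47163 on the horizontal axis beside Shc2 at 1.93.

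The 17 members under the limit had means of 0.105 to 0.462 FPKM. When all genes were tested without a limit, 9 of them passed, 4 higher and 5 lower in TG, in a fit that called 53.8% of 2314 genes, 26.9% in each direction. They were named after their values were seen. E230013L22Rik read 0.587, 0.843 and 0.560 FPKM in STG, 0.887, 0.629 and 0.608 in CTG, and 0.0589 to 0.143 FPKM in the 6 Sp5C libraries, a difference of 1.02 (adjusted p = 5.74e-07). It overlaps its partner Rab20, a small GTPase of the endosome, which was at 2.31 ± 0.260 FPKM in TG and 0.271 ± 0.126 FPKM in Sp5C (1.38 ± 0.08). Gm16675 beside the interferon regulatory factor gene Irf2 (0.54), Gm16793 beside Mfhas1 (0.43) and Gm4129 beside Usp15 (0.38) were the others higher in TG. Lower in TG were Gm20684 beside Pcsk6, a proprotein convertase (-0.73), Gm45885 beside Fam160a2 (-0.63), Gm40383 beside Ferd3l (-0.44), 5430400D12Rik beside Ap3s2 (-0.34) and 9530062K07Rik beside Washc2 (-0.30). On the fragment scale above, Gm45885, Gm40383, Gm4129 and Gm20684 stood at medians of only 1.82, 1.95, 3.28 and 3.59 fragments. The TG and Sp5C libraries overlapped for Gm16675, Gm4129, Gm45885, Gm40383, 5430400D12Rik and 9530062K07Rik. The partner passed its own test in 8 of the 9, with the same sign in 7 and the opposite in 1, 5430400D12Rik. The partner left over, Ferd3l, had a mean of 0.09 FPKM, under the limit for coding genes, and was not tested.

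Between C and S in TG, 0 of 30 members passed, and 0 of the 1373 annotated lncRNA genes (0%). At an unadjusted p under 0.05 there were 3 members, beside 24.1% of all genes. The groups did not overlap for 4 members, all lower in CTG, beside 31.5% of all genes lower and 1.02% higher. The median difference was -0.06 over members and -0.22 over all annotated lncRNA genes, and that of TEC and sense_intronic genes was -0.29 and -0.30. The shift of the whole table shows in the median log2 level of each library, which was 0.90, 0.73 and 0.74 in STG, 0.62, 0.57 and 0.47 in CTG, 0.44, 0.53 and 0.63 in SSp5C, and 0.59, 0.67 and 0.80 in CSp5C. For members these medians were 0.81, 0.58 and 0.54 in STG, 0.61, 0.60 and 0.67 in CTG, 0.77, 0.97 and 0.81 in SSp5C, and 0.83, 0.70 and 1.09 in CSp5C. The part of this shift in single members was not tested beyond the centring given with them.

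2310014F06Rik, whose values are given above, had the lowest difference in TG, at 3.28 ± 0.281 FPKM in CTG and 5.71 ± 0.512 FPKM in STG (SD, n = 3). The difference was -0.71 ± 0.13 with adjusted p = 0.0864. With all 12 libraries in 1 fit it passed (-0.71, adjusted p = 0.0269), beside 13 of 1431 annotated lncRNA genes called lower in that fit (0.908%). With each library centred on the median of the annotated lncRNA genes it was -0.48 (adjusted p = 0.407), and Tead1 differed by -0.07 ± 0.11 (adjusted p = 0.966). Next were 2310010J17Rik, beside the clathrin assembly gene Picalm, at 2.71, 3.60 and 3.11 FPKM in STG and 2.66, 1.87 and 1.66 in CTG, whose groups just did not overlap (-0.52 ± 0.18, adjusted p = 0.157), 4632427E13Rik (-0.37 ± 0.15, adjusted p = 0.188) and Gm32031 beside Spty2d1 (-0.34 ± 0.23, adjusted p = 0.374). The highest were Gm47163 (0.17 ± 0.12), Gm16576 beside the nuclear envelope gene Sun2 (0.16 ± 0.17), 2810029C07Rik (0.15 ± 0.30) and 4933412E12Rik (0.13 ± 0.14), with adjusted p from 0.399 to 0.77. The other members whose groups did not overlap were 9330151L19Rik (-0.17) and Gm9776 (-0.10).

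Taken by transcript, 1 member transcript passed in TG, beside 2 of 1522 annotated lncRNA transcripts (0.131%). It was the transcript of 271 bases and 2 exons of 2310010J17Rik, at 1.46, 3.15 and 1.94 FPKM in STG and 0.136, 0.0728 and 0.0867 in CTG (-2.12 ± 0.23, adjusted p = 0.018). The other transcript of the gene, of 432 bases and 3 exons, read 1.25, 0.448 and 1.16 FPKM in STG and 2.52, 1.80 and 1.58 in CTG (0.79 ± 0.26, adjusted p = 0.193), so the groups were apart in opposite directions. In Sp5C the short transcript was at 0.143, 4.70 and 0.118 FPKM in SSp5C and 5.6, 2.76 and 0.300 in CSp5C, so it swung within groups, with the other transcript going the other way. Its share of the gene was 3.89% to 5.21% in CTG and 53.8% to 87.6% in STG, but 4.95% to 87.9% within SSp5C and 8.73% to 90.6% within CSp5C. The sum of both transcripts, 1.66 to 6.18 FPKM over the 12 libraries, varied by a smaller factor than the short transcript alone. Shares of other members swung as well: the leading transcript of Gm32031 took 0% to 100% and that of Gm26512 6.22% to 100% over the libraries, and that of Ndufb1-ps 91% to 100%.

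In Sp5C, 0 of 32 members passed between C and S, beside 1 of 1402 annotated lncRNA genes (0.0713%). No member had an unadjusted p under 0.05, beside 10.3% of all genes. The groups did not overlap for 2 members higher in CSp5C and 0 lower, beside 13.2% and 2.43% of all genes. Those 2 were 9330162012Rik, at 0.679 to 1.03 FPKM in SSp5C and 1.03 to 1.26 FPKM in CSp5C with ends that meet at this rounding, and Lrp8os3 beside the reelin receptor gene Lrp8, at 0.398 to 0.479 and 0.487 to 0.779 FPKM. The median difference was 0.06 over members, 0.14 over all annotated lncRNA genes, and 0.22 and 0.21 over TEC and sense_intronic genes. Among the highest were 2310010J17Rik (0.37 ± 0.32), Gm16576 (0.31 ± 0.17) and Lrp8os3 (0.22 ± 0.17). The lowest were Gm32031 (-0.39 ± 0.31), Haglr (-0.22 ± 0.17), A730020E08Rik (-0.16 ± 0.15) and Gm20684 (-0.16 ± 0.22). Adjusted p of these 7 ran from 0.48 to 0.752.

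**Figure D5:**
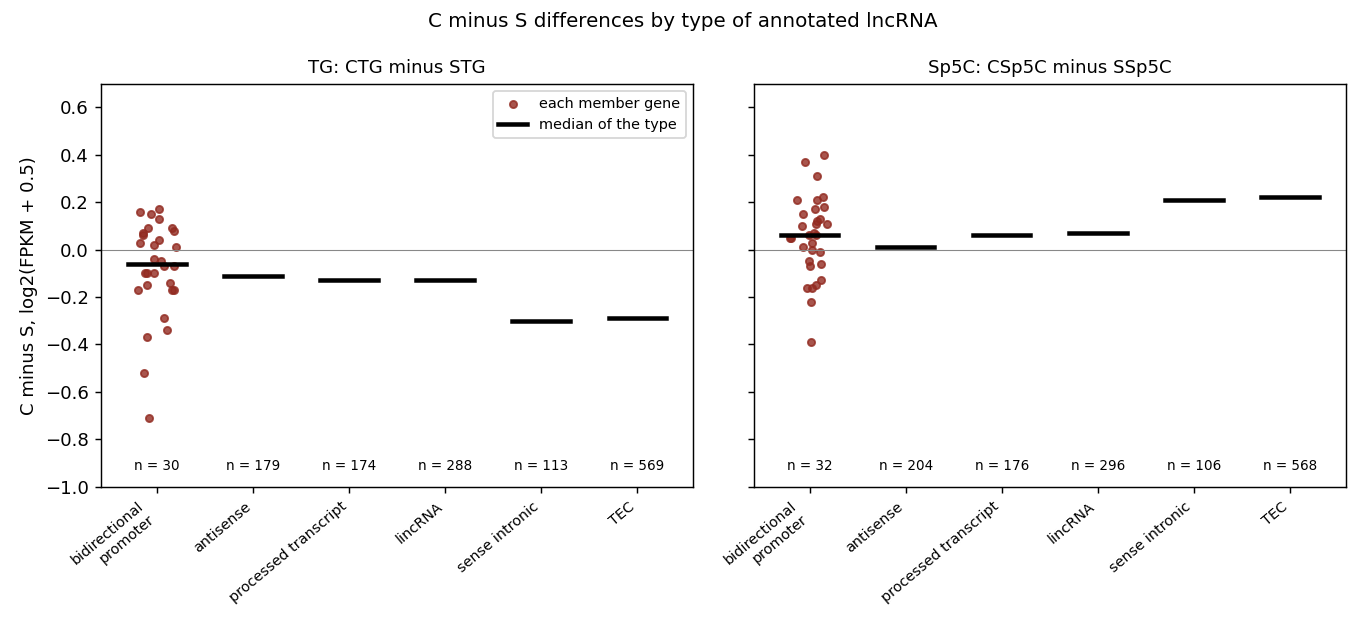
C minus S difference on the log2(FPKM + 0.5) scale in TG (left) and Sp5C (right); points are the member genes and black bars the median of each lncRNA type, with the number of genes tested below. The medians of sense intronic and TEC genes lie at -0.30 and -0.29 in TG and at 0.21 and 0.22 in Sp5C, and those of members at -0.06 and 0.06.

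The C minus S effect differed between the tissues for 1 of 31 members, 2310014F06Rik, beside 44 of 1431 annotated lncRNA genes (3.07%), all with the lower effect in TG. Its difference of effects was -0.77 ± 0.19 with adjusted p = 0.0497, close to the threshold. In Sp5C the gene was at a mean of 0.252 FPKM, under the limit for a test within that tissue, and on a scale with a pseudocount of 0.5 a change there would be pressed towards 0, so this value is set mostly by the effect in TG (-0.71). The call was lost with a pseudocount of 0.1 (adjusted p = 0.0656), with no limit on low values (0.0728), with median-ratio scaling (0.051) and with centring on the lncRNA median (-0.39, adjusted p = 0.272). It was also lost without STG replicate 1 (0.114), STG replicate 2 (0.0622), STG replicate 3 (0.0533), CTG replicate 1 (0.0788), CTG replicate 3 (0.119), SSp5C replicate 1 (0.116), SSp5C replicate 2 (0.0865), CSp5C replicate 2 (0.0843) or CSp5C replicate 3 (0.107). The next lowest p among negative differences was that of 4632427E13Rik (-0.43 ± 0.20, adjusted p = 0.142), and among positive ones those of 4933412E12Rik (0.26 ± 0.21, adjusted p = 0.388) and A730020E08Rik (0.23 ± 0.19, adjusted p = 0.417). The median difference of effects was -0.10 over members and -0.37 over all annotated lncRNA genes.

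Among the partners, 0 of 46 passed between C and S in TG, beside 0.00775% of 12906 protein-coding genes, and 0 of 44 in Sp5C, beside 0.0315% of 12690. At an unadjusted p under 0.05 there were 1 and 3 partners, beside 4.7% and 5.02% of all protein-coding genes. The partner with the lowest p was Btf3, a factor of transcription and of nascent protein chains, in Sp5C. It read 65.4, 68.3 and 70.3 FPKM in SSp5C and 49.1, 43.6 and 46.7 in CSp5C, without overlap, but with adjusted p = 0.0895 (-0.54 ± 0.06). In TG it read 70.9, 68.7 and 51.8 FPKM in STG and 82.4, 74.2 and 74.3 in CTG (0.28 ± 0.13, adjusted p = 0.96). Gm9828, 63 bases across the promoter, read 0.859, 1.12 and 0.599 FPKM in SSp5C and 0.563, 0.961 and 1.21 in CSp5C, with groups that overlap (0.05 ± 0.21, adjusted p = 0.927).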

How the data were processed

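RNA of 12 libraries from mouse TG and Sp5C had been measured by sequencing after removal of ribosomal RNA; 3 µg of RNA entered each library, made with a directional kit, per the labels' protocols. The authors deposited FPKM per transcript (fragments scaled by transcript length and by sequencing depth). Per the submitters' processing notes, HISAT2, StringTie 1.3.1 and Cuffdiff 2.1.1 were used; the HISAT2 version, the build and the annotation were not given in the sources used here. Depth is given in the report from steps in low values (tolerance 0.4%). Transcripts were summed per gene. Members are the genes of type bidirectional_promoter_lncRNA; these and the lists were chosen with earlier results of these data known. Of all annotated lncRNA transcripts, 97.4% had the same versioned ID in GENCODE M21. Partners are protein-coding genes on the other strand with starts at most 2000 bases apart, nearest first.

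Log2(FPKM + 0.5) for lncRNA genes (mean of at least 0.5 FPKM) and log2(FPKM + 1) for protein-coding genes (at least 1 FPKM) entered limma 3.58.1 under R 4.3.3 (trend and robust, two-sided, Benjamini-Hochberg over all genes tested, threshold 0.05): C against S on the 6 libraries of a tissue, tissues and difference of effects on all 12. The lncRNA relative to its partner was tested on the difference of log2(FPKM + 0.5) over all head-to-head pairs. Such scales understate changes of low genes. The code was checked on simulated data. Named members are the 6 highest in level, the 10 highest and 10 lowest called between tissues, the 4 highest and 4 lowest per tissue between C and S, the 2 lowest p per direction for the difference of effects, and the 4 highest and 4 lowest pairs. Deviations of same-numbered S and C libraries of a tissue correlated weakly or negatively, as did those of STG with SSp5C, which cannot exclude a pairing. The numbers of CTG and CSp5C went together, with no label that pairs them. Alternatives were other pseudocounts, limits, scalings, transcripts, plain limma, a replicate block, partner distances and leaving out each library. Other members named (Gm9776, Gm26559, 1700016J18Rik, Gm49492, Gm9828 and those under the limit) were chosen after their values were seen. The values of the highest member between C and S in Sp5C are not reported here. Input was read with pandas 2.3.3 and, in R, version 1.17.8 of data.table.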

Additional observations from a re-analysis of the deposited data

Results flagged for a closer look

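Within the 6 libraries of a tissue, 48 sets of values of named members were searched for a single library apart from the rest, and 4 were found; chance gives about 1 in 20. In Sp5C, Ndufb1-ps read 30.4 FPKM in SSp5C replicate 1 and 38.3 to 42 FPKM in the others. 1500026H17Rik read 1.25 FPKM in CSp5C replicate 3 and 0.893 to 0.974 FPKM in the others. Gm32031 read 2.28 FPKM in SSp5C replicate 3 and 0.444 to 1.11 FPKM in the others. Lrp8os3 read 0.779 FPKM in CSp5C replicate 1 and 0.398 to 0.519 FPKM in the others. The C minus S effect of 2310014F06Rik differed between TG and Sp5C by -0.77 on the log2 scale (limma, adjusted p = 0.0497).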

How the results depend on the processing

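Of 232 counts of calls recomputed under the alternatives, 211 stayed within 1.5 times the reported count. The lower count in TG between C and S was 0 as reported and 1 by transcript or with all 12 libraries in the fit. The difference of effects had 1 call as reported and 0 with a pseudocount of 0.1, without a limit on low values, with median-ratio scaling, by transcript or with each library centred on its lncRNA median, a choice made after seeing the data; leaving out each library gave 0 to 1. Between tissues, 3 members higher in TG became 7 without a limit, where 26.9% of all genes were higher. By transcript the count was 5, of transcripts and not of genes. It holds both transcripts of 2310014F06Rik and the transcript of 649 bases of Gm32031, which did not pass as a gene. The share over all annotated lncRNA transcripts is not given for this contrast. For the lncRNA relative to its partner, 7 higher became 4 with a pseudocount of 0.1. The 12 lower became 19 without a limit and 7 with a mean of at least 1 FPKM, which tests 48 and 20 pairs in place of 30. The share called over all head-to-head pairs is not given for these fits, so whether the moves are particular to members is not known. For the other settings the cause was not tested. Of 1037 values of single genes, 1014 kept direction and side of the threshold, and 4 reversed, none of them past the threshold: 2810029C07Rik between C and S in TG turned to -0.03 when STG replicate 2 was left out and to -0.00 when CTG replicate 3 was (range with each library left out, up to 0.44), and Gm20684 in Sp5C to 0.01 with SSp5C replicate 3 left out and 0.02 with CSp5C replicate 1 left out (range from -0.31). Same-numbered libraries of STG and CTG correlated at -0.151 to 0.191 in their deviations, and 2 of 3 correlated best with their own number. Those of SSp5C and CSp5C correlated at -0.127 to 0.103, with 1 of 3 best with its own. Low correlations cannot exclude a pairing, and no label gives one. With the number as a replicate block, members passing were 0 in both C minus S contrasts (0% and 0.0713% of all annotated lncRNA genes). They were 3 higher and 13 lower between tissues, and 1 for the difference of effects (10.3% of all, in place of 3.07%). Between STG and SSp5C the correlation was -0.197 to -0.0227. Between CTG and CSp5C it was 0.228 to 0.383 and 3 of 3 libraries correlated best with their own number, a hint from the data and not the design. Many members are worth few fragments, and differences of the size of their SE were not detectable with 3 libraries a group.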
